A study of Mus musculus with 15 samples.

Results

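The Slc25a genes encode the mitochondrial carrier family, and their transcripts were followed here in mouse liver after methotrexate (MTX), with and without inorganic nitrate. The members were all protein-coding genes in the count table whose symbol begins with Slc25a, which gave 47 of 54532 genes. Of these, 41 passed the filter on low counts and were tested. The other 6 (Slc25a18, Slc25a31, Slc25a2, Slc25a43, Slc25a41 and Slc25a54) were below it, with 0 to 52 reads each over all 15 libraries. The livers of wild-type mice gave the RNA, in 3 groups of 5 libraries. The labels do not say that each library is a separate mouse, so the livers counted below are libraries. In the MTX+nitrate group, mice drank water with 2 mM nitrate for 5 days, were injected intraperitoneally once with MTX at 20 mg/kg on the last of them, and were sampled 24 h later. The MTX group is labelled with the drug alone, recorded at the same 20 mg/kg and 24 h, and the control group with neither agent. The series title frames the question as protection by nitrate against liver injury from MTX, an antifolate. The sources used here give no strain, age or sex, and no group received nitrate alone, so nitrate was compared only in livers that also had MTX.

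Mitochondrial carriers are small proteins of the inner membrane that exchange or carry solutes between cytosol and matrix. They move ADP, ATP and phosphate for oxidative phosphorylation, citrate and malate for lipid synthesis and redox shuttles, ornithine and aspartate for the urea cycle, acylcarnitines for fat oxidation, and cofactors such as folate, NAD, coenzyme A, glutathione and iron. Hepatocytes run many of these pathways at once. Some substrates have a pair of related carriers, one abundant in liver and one in muscle, brain or testis, and several members are still orphans with no agreed substrate.

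Slc25a25 had the largest log2 fold change of the family in both comparisons of MTX+nitrate. It encodes an ATP-Mg/phosphate carrier, which trades adenine nucleotides in the matrix for phosphate and is known in muscle and other tissues to be regulated by calcium. The gene (ENSMUSG00000026819) lies on the minus strand of chromosome 2, at 32414487 to 32451445 in GRCm38. RefSeq (GRCm38.p6) lists 3 transcription starts for it. The sequence upstream of the start at position 32424066 is printed because it holds the cyclic AMP response element TGACGTCA, shown in capitals. The match begins 150 bases before the start. The windows of the other starts, at 32431151 and 32451470, hold no match to the letters searched. The bases checked downstream of those starts occur in GENCODE transcripts of the gene (Slc25a25-212 and Slc25a25-205). Those of the printed start occur in none. Below the Slc25a25 window stands the same window of Slc25a34, the member that fell most among those called, which holds no match to the letters searched. Both are the 250 bases before the start, on the minus strand, at chr2:32424067-32424316 and chr4:141623835-141624084.
Slc25a25 promoter: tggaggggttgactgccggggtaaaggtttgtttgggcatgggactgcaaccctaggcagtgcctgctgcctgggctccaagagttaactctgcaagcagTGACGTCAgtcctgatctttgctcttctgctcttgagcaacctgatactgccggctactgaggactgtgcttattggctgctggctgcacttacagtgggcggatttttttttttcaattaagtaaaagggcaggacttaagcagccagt
Slc25a34 promoter: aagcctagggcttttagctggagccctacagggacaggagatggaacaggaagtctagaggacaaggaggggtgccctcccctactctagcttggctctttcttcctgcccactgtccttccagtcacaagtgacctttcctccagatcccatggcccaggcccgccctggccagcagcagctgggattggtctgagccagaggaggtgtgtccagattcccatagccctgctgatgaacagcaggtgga
On either strand, TGACGTCA occurred in 1.55% of the 32851 RefSeq promoter windows and in 2 of the 46 windows found for 36 member genes, those being 1 window each of Slc25a25 and Slc25a36. Its shorter half-site TGACG, which overlaps it, occurred in 17.8% of all windows and in 11 of the 46. The E-box CACGTG occurred in 6.02% of all windows and in 8 of the 46. These letters were searched after the expression values had been seen, and a match describes the sequence, not a site in use.

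Slc25a25 stood at 756, 604, 388, 431 and 325 CPM in the 5 MTX+nitrate livers, at 196, 251, 43.5, 60.6 and 240.4 CPM in the 5 MTX livers, and at 92.6, 58.4, 50.5, 65.6 and 197 CPM in the 5 controls. CPM are counts scaled to library size, with edgeR's TMM factors. Every MTX+nitrate liver was above every liver of the other groups, while the MTX livers overlapped the controls. Against control, Slc25a25 rose 5.4-fold with MTX+nitrate (log2 fold change 2.43 ± 0.48 SE, adjusted p = 0.0186, edgeR's quasi-likelihood test with Benjamini-Hochberg adjustment). Against MTX alone the difference was 3.16-fold (1.66 ± 0.46), and its adjusted p of 0.052 missed the threshold of 0.05. None of the 10 fits without 1 library called it (adjusted p from 0.05 to 0.109). Of 9 other settings, 4 did, among them DESeq2 (0.0211) and limma-voom (0.0352), and 5 did not, with adjusted p up to 0.0781 without MTX replicates 1 and 5. MTX against control gave 1.71-fold (0.77 ± 0.46, adjusted p = 0.338). Control replicate 5 was more than 100 CPM above the other controls, and without it the MTX+nitrate difference from control was 2.91 (adjusted p = 0.00889). Naif1, a nuclear apoptosis-inducing factor gene that overlaps Slc25a25 on the opposite strand, averaged 6.19 ± 1.2 CPM in MTX+nitrate livers, 4.92 ± 0.79 CPM in MTX livers and 3.83 ± 0.5 CPM in controls (SD, n = 5 each), and rose with MTX+nitrate against control (0.69, adjusted p = 0.0455). The strand setting of the counting is not given in the sources used here, so reads of the overlap cannot be told apart.

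**Figure D1:**
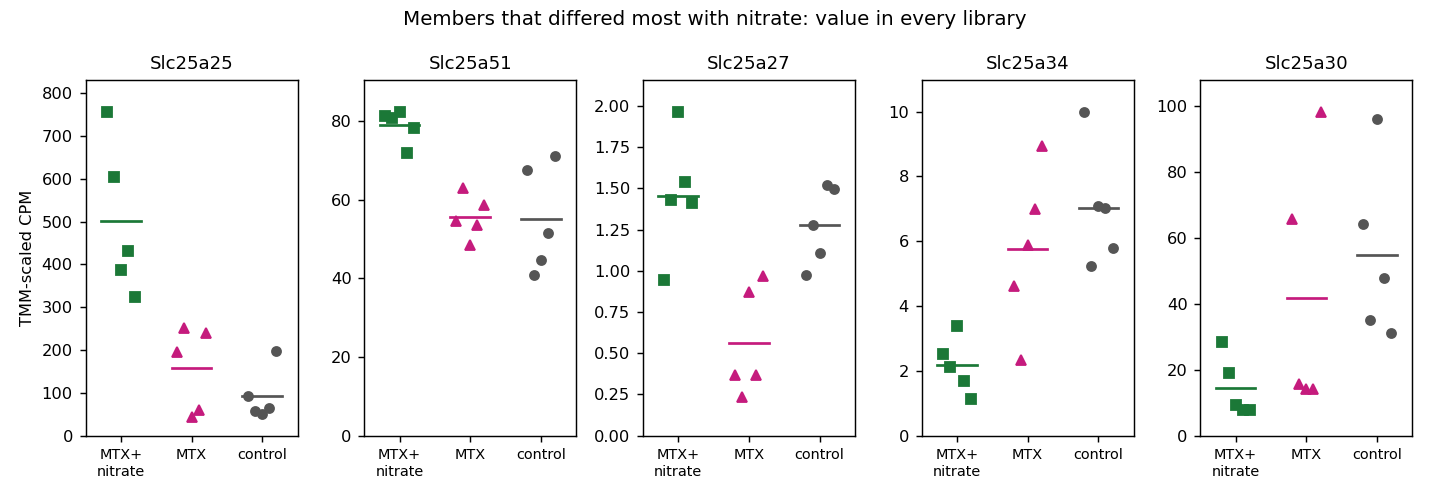
TMM-scaled CPM of Slc25a25, Slc25a34, Slc25a51, Slc25a27 and Slc25a30 in each library, with 5 points per group and a bar at the group mean. For Slc25a25 and Slc25a51, all 5 MTX+nitrate points lie above all others, and for Slc25a34 all 5 lie below all 5 controls.

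The balance of ATP-Mg/phosphate carrier transcripts also differed between the groups. Per kilobase of gene length, Slc25a25 made up 43.8% ± 8.2 of the summed level of the 4 genes of this class in MTX+nitrate livers, 19.3% ± 11 in MTX livers and 14.2% ± 7.12 in controls (SD, n = 5 each). Slc25a23, the related calcium-regulated carrier, made up 55.7% ± 8.11, 80.1% ± 11.1 and 85% ± 7.17 of it in the same order. Slc25a23 itself stood at 412 ± 36.4 CPM in MTX+nitrate livers, 416 ± 32 CPM in MTX livers and 357 ± 32.2 CPM in controls. It was not called in any comparison (adjusted p = 0.945 for MTX+nitrate against MTX, 0.234 for MTX+nitrate against control and 0.156 for MTX against control). Slc25a24, the third member of the class, stayed near 2 CPM on average in every group, and Slc25a41 had 1 read in all 15 libraries. The ratio of Slc25a25 to Slc25a23 per kilobase was 0.821 ± 0.291 in MTX+nitrate livers, 0.26 ± 0.168 in MTX livers and 0.174 ± 0.107 in controls. The ratio passed 1 in a single library, MTX+nitrate replicate 1, at 1.26. With the GENCODE transcript length in place of the deposited gene length, the share of Slc25a25 was 50.4% ± 8.23 in MTX+nitrate livers, 23.5% ± 12.9 in MTX livers and 17.6% ± 8.4 in controls, and its mean ratio to Slc25a23 in MTX+nitrate livers was 1.07 ± 0.38, so which of the 2 led there depends on the length used.

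**Figure D2:**
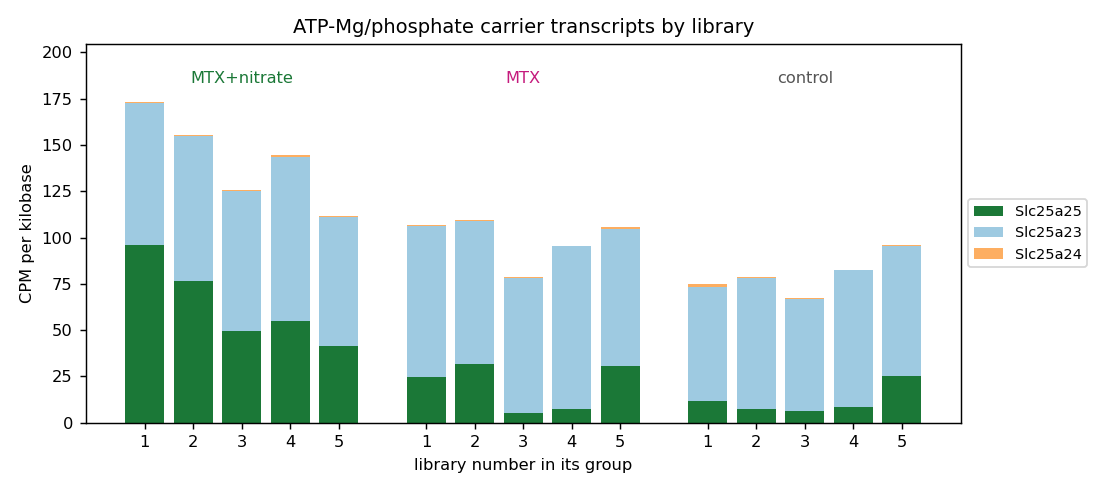
Level per kilobase of the ATP-Mg/phosphate carrier genes Slc25a25, Slc25a23 and Slc25a24, stacked for each of the 15 libraries, with a linear axis from 0. Slc25a41 is not drawn. The Slc25a25 section, at the base, is 41.3 to 96.1 CPM per kilobase in MTX+nitrate livers, 5.54 to 32 in MTX livers and 6.43 to 25 in controls. Above it lies a Slc25a23 section of 60.3 to 88.7.

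The family as a whole spans a wide range of levels in liver. Per kilobase, the highest member in controls was Slc25a47, an orphan carrier known for its expression in liver, at 172 ± 33.9 CPM per kilobase in MTX+nitrate livers, 205 ± 66.6 in MTX livers and 220.5 ± 43.3 in controls. It was followed in controls by the ADP/ATP exchanger Slc25a5 at 179 CPM per kilobase, Slc25a39, a glutathione carrier, at 121, and the citrate exporter Slc25a1 at 96.6. The spread of Slc25a47 reaches the level of Slc25a5, so the order of these 2 is not fixed by these libraries. These 4 genes together held 49% of the family's summed level per kilobase in MTX+nitrate livers, 52.8% in MTX livers and 51.2% in controls. Next in controls came the ornithine carrier Slc25a15 (80.9 CPM per kilobase), the aspartate/glutamate exchanger Slc25a13 (69.2), Slc25a23 (67.5), the phosphate carrier Slc25a3 (49.2), the dicarboxylate carrier Slc25a10 (42.7) and the oxoglutarate/malate carrier Slc25a11 (36). In MTX+nitrate livers, Slc25a25 entered the 10 highest at 63.7 CPM per kilobase, in place of Slc25a11. A level above 10 CPM per kilobase was reached by 19 members in MTX+nitrate livers, 20 in MTX livers and 22 in controls.

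**Figure D3:**
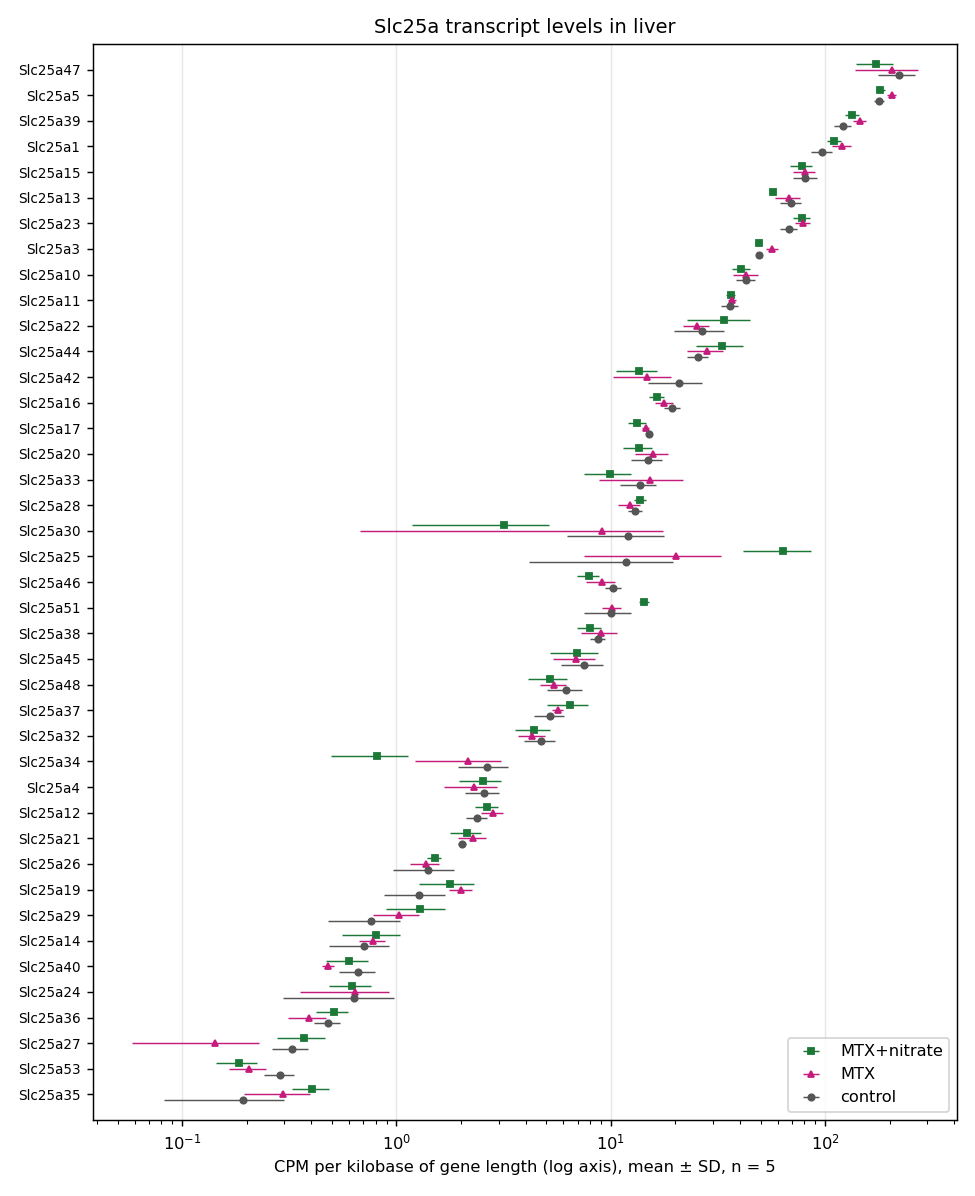
Mean level of each detected Slc25a gene in CPM per kilobase of gene length (log axis), with SD over 5 libraries, for MTX+nitrate, MTX and control livers. The 3 groups lie close together for most members, and Slc25a25 shows the clearest separation, at 63.7 in MTX+nitrate livers against 20.1 in MTX livers and 11.8 in controls.

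Several pairs of related carriers differed strongly in level, and 6 pairs are given here as ratios per kilobase of the deposited gene length. The liver ADP/ATP exchanger Slc25a5 exceeded the heart and muscle isoform Slc25a4 by a ratio per kilobase of 74.3 ± 15 in MTX+nitrate livers, 93.8 ± 23.6 in MTX livers and 71.8 ± 11.5 in controls. Slc25a5 shares 46.6% of its 50-base stretches with other loci, chiefly pseudogenes such as Gm5560, so its level depends on how such reads were assigned. The liver aspartate/glutamate exchanger Slc25a13 exceeded its brain and muscle counterpart Slc25a12 by 21.8 ± 2.17, 24.5 ± 5.22 and 29.7 ± 7.2 in the same order of groups. Slc25a39 exceeded Slc25a40, the other glutathione carrier, by 232 ± 58.5, 303.5 ± 33.1 and 187 ± 35. For the mitoferrins, which bring iron into the matrix, the ratio of Slc25a28 to the erythroid form Slc25a37 was 2.24 ± 0.605, 2.16 ± 0.169 and 2.56 ± 0.511, but 0.897 ± 0.242, 0.864 ± 0.0677 and 1.02 ± 0.205 by GENCODE transcript length, so these data do not show which of the 2 was higher. The pyrimidine nucleotide carriers Slc25a33 and Slc25a36 differed by 20.5 ± 7.92, 39.8 ± 15 and 28.3 ± 2.19, and by 11.2 ± 4.31, 21.7 ± 8.16 and 15.4 ± 1.19 by transcript length. By the deposited gene length Slc25a10 and Slc25a11 were close, with ratios of 1.12 ± 0.104, 1.16 ± 0.118 and 1.19 ± 0.178, and 0.978 in the lowest library. By transcript length the ratios were 1.54 ± 0.143, 1.6 ± 0.163 and 1.65 ± 0.245, and 1.35 in the lowest library. How far Slc25a10 exceeded Slc25a11 therefore depends on the length used.

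Some facts of the whole data set bear on all the comparisons. Library totals ran from 16663967 to 19274497 counts. Summed hepatocyte markers lay at 79240 to 123200 CPM in MTX+nitrate livers, 110600 to 117700 CPM in MTX livers and 85710 to 116100 CPM in controls, which fits the label of liver. Adipocyte and muscle markers summed to under 1 CPM in every library, and the 3 germ cell markers were at 0 in all. Neutrophil and monocyte markers summed to 3.66 to 7.12 CPM in MTX+nitrate livers, 2.91 to 31.9 CPM in MTX livers, with the 2 highest in MTX replicates 1 and 5, and 3.47 to 6.92 CPM in controls. Endothelial markers summed to 178 to 255 CPM in MTX+nitrate livers, 126 to 172 CPM in MTX livers and 164 to 251 CPM in controls. In bulk RNA, fewer cells of a type and less RNA per cell cannot be told apart. The correlation across genes of a library's deviation from the mean with transcript length ran from -0.04 to 0.14 in MTX+nitrate livers, from -0.16 to -0.01 in MTX livers and from -0.03 to 0.11 in controls. The part of the markers in the results was not tested. Fits with length and GC trends removed changed the number of genes called and the split of higher to lower calls. Their values stand beside single genes and in the section on how the results depend on the processing.

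For MTX+nitrate against MTX, which asks what nitrate changed in livers exposed to the drug, 3 of 41 Slc25a genes were called, against 4.31% of all 14219 genes tested. Slc25a51, the NAD carrier of the inner membrane, and Slc25a27, an uncoupling-protein relative best known from brain, rose, and Slc25a34, a poorly characterised carrier, fell. These are 2 higher, against 2.37% of all genes, and 1 lower, against 1.94%. With length and GC trends removed, lower calls outnumbered higher ones over all genes. The libraries of the groups did not overlap for 3 members (Slc25a51 and Slc25a25 higher, Slc25a3 lower), against 6.27% of all genes. The median log2 fold change was -0.06 over the 41 members and 0.01 over all genes. For 35 of the 41, the fold change was within 0.5 on the log2 scale. At an unadjusted p under 0.05 stood 10 of 41 members, against 22.4% of all genes. DESeq2 called 5 members, adding Slc25a25 as higher and Slc25a3 as lower, against 8.5% of all genes by that tool.

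Slc25a51 (chromosome 4, 45395923 to 45408766) stood at 81.3, 80.9, 82.3, 71.9 and 78.3 CPM in MTX+nitrate livers, at 54.5, 63.1, 48.4, 53.6 and 58.6 CPM in MTX livers, and at 67.5, 40.8, 44.7, 51.5 and 71.2 CPM in controls. All 5 MTX+nitrate livers were above all 10 others, narrowly so over control replicate 5. It rose 1.42-fold against MTX (log2 0.51 ± 0.13, adjusted p = 0.0414) and 1.43-fold against control (0.52 ± 0.13, adjusted p = 0.0481). Both calls were close to the threshold: against MTX, none of the 10 fits without 1 library kept it (adjusted p from 0.0526 to 0.0882), and against control 1 of 10 did (0.0271 to 0.107). With length and GC trends removed, the difference from MTX was 0.41 (adjusted p = 0.0936). The call against MTX was also lost with a block for replicate number and without MTX replicates 1 and 5 together. The call against control held in 4 of 8 other settings. It was lost with median-of-ratios scaling, the replicate block, the length and GC offsets and the fit over 2 groups (0.0807).

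Slc25a34 (chromosome 4, 141618824 to 141623821) stood at 2.51, 2.12, 3.39, 1.7 and 1.13 CPM in MTX+nitrate livers, at 4.62, 2.34, 5.88, 7.01 and 8.95 CPM in MTX livers, and at 9.99, 5.23, 7.09, 7.04 and 5.81 CPM in controls. The MTX+nitrate livers were the lowest and did not overlap the controls, while MTX replicate 2 fell within their range. These levels rest on 20 to 69 reads per library in MTX+nitrate livers, 40 to 148 in MTX livers and 94 to 185 in controls. It fell 2.64-fold against MTX (-1.40 ± 0.33, adjusted p = 0.0297) and 3.22-fold against control (-1.69 ± 0.32, adjusted p = 0.0173). Against MTX, 5 of 10 fits without 1 library lost the call, with adjusted p up to 0.0606 without MTX+nitrate replicate 2; the other 4 were those without MTX+nitrate replicate 4 and MTX replicates 1, 4 and 5. Without MTX replicates 1 and 5 together, the difference from MTX was -1.21 (adjusted p = 0.0931). The call against MTX was also lost by limma-voom (0.0555), in the fit over 2 groups (0.0579) and with a block for replicate number. Its closest relative, Slc25a35, was higher in MTX+nitrate livers than in controls by 1.08 on the log2 scale, at an adjusted p of 0.139. Slc25a35 was scarce, at 1.49 ± 0.29 CPM in MTX+nitrate livers and 0.70 ± 0.40 CPM in controls. This rests on 19 to 32 reads per library in MTX+nitrate livers and 5 to 21 in controls.

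Slc25a27 (chromosome 17, 43641891 to 43667214) was scarce, at 0.943, 1.43, 1.96, 1.54 and 1.41 CPM in MTX+nitrate livers, 0.37, 0.234, 0.873, 0.369 and 0.967 CPM in MTX livers, and 0.972, 1.28, 1.11, 1.52 and 1.5 CPM in controls. The MTX livers were the low group: all 5 were below every control, and MTX replicate 5 alone overlapped the MTX+nitrate livers. Read counts were 18 to 40 per library in MTX+nitrate livers, 4 to 16 in MTX livers and 18 to 29 in controls. It rose 2.57-fold with MTX+nitrate against MTX (1.36 ± 0.36, adjusted p = 0.0425). Only the fits without MTX replicate 3 or without MTX replicate 5 kept this call among the 10 that leave out 1 library, with adjusted p up to 0.0954 in the others. It was also lost with no expression filter (0.0802), in the fit over 2 groups (0.0824) and with the offsets for length and GC (0.063). A block for replicate number, and leaving out MTX replicates 1 and 5 together, lost this call too. MTX against control gave -1.17 ± 0.36 (adjusted p = 0.0757), and MTX+nitrate against control gave 0.19 ± 0.33 (adjusted p = 0.821).

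For MTX+nitrate against control, 3 of 41 members were called, against 2.41% of all genes: Slc25a25 and Slc25a51 rose, where 1.41% of all genes did, and Slc25a34 fell, where 0.992% did. The libraries did not overlap for 7 of 41 members, against 5.2% of all genes. Those were Slc25a25 and Slc25a51 on the higher side and Slc25a34, Slc25a30, Slc25a46, Slc25a13 and Slc25a16 on the lower side. At an unadjusted p under 0.05 stood 16 of 41 members, against 17.6% of all genes. DESeq2 called 6 members, adding Slc25a30, Slc25a42 and Slc25a46 as lower, against 5.28% of all genes by that tool. The median log2 fold change was -0.01 over the members and 0.01 over all genes. The calls of Slc25a25 and Slc25a34 held in all 10 fits that left out 1 library and in all 8 other settings tried, with adjusted p no higher than 0.0495 and 0.0472. The 2 comparisons with MTX+nitrate share its 5 libraries, so their values are not independent.

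**Figure D4:**
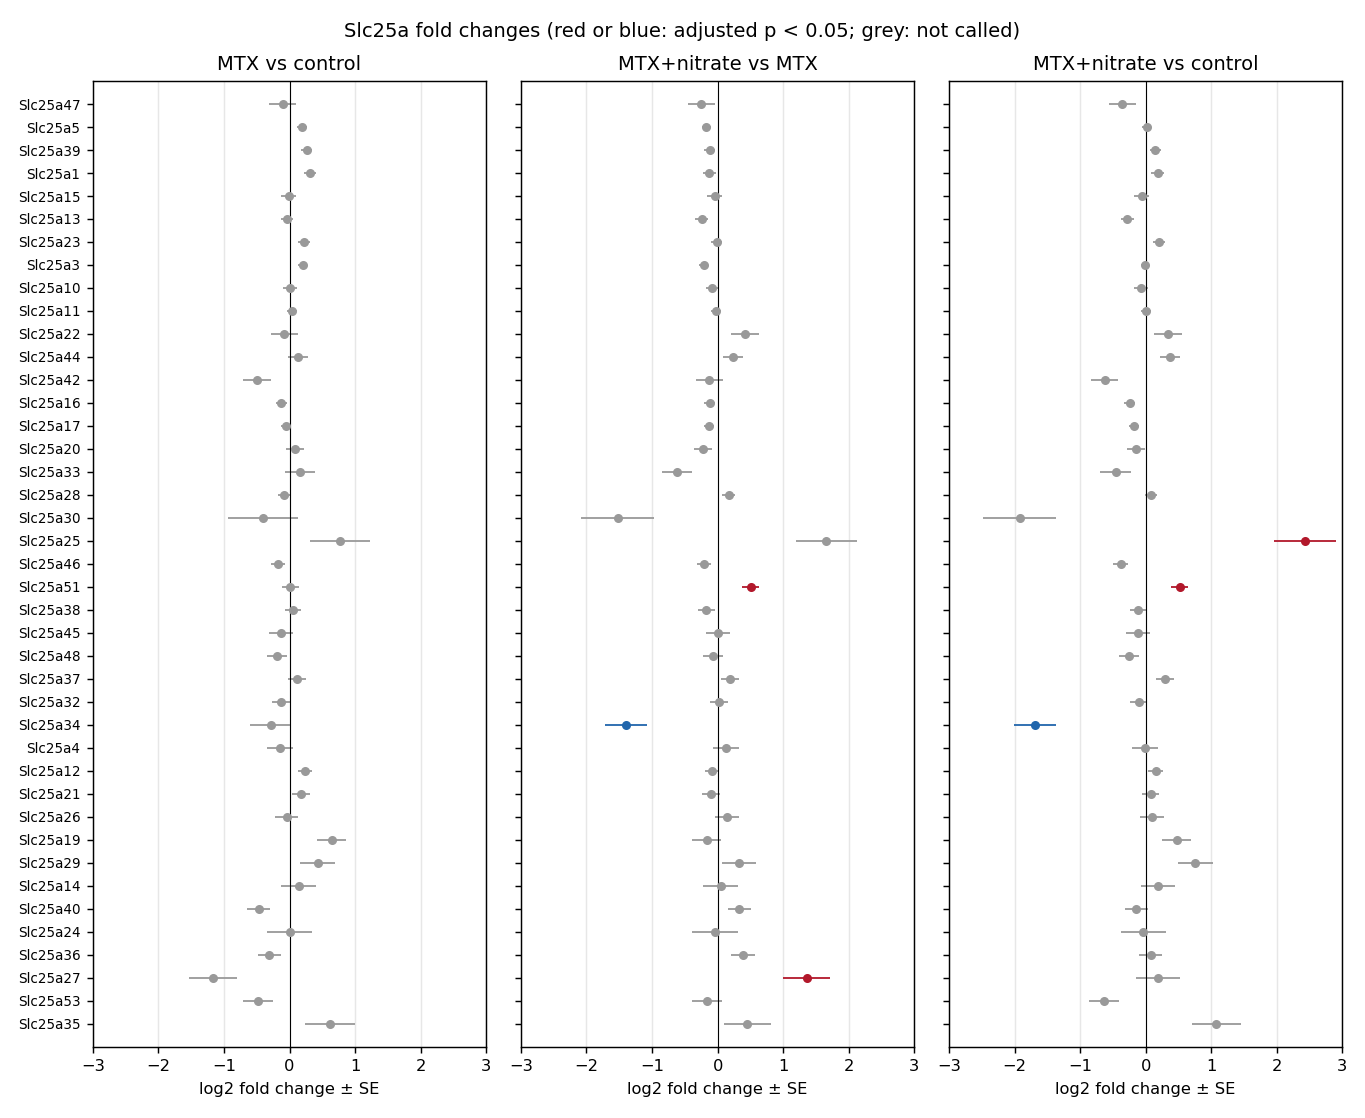
Log2 fold change ± SE of the 41 tested Slc25a genes in the 3 comparisons. Members called at an adjusted p under 0.05 are coloured and the rest are grey: 3 are coloured for MTX+nitrate against MTX, 3 for MTX+nitrate against control and 0 for MTX against control.

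Slc25a30, a carrier close to the uncoupling proteins and known mainly from kidney, was one of the most variable members. It stood at 28.4, 19, 9.22, 7.8 and 7.89 CPM in MTX+nitrate livers, at 65.9, 15.8, 14.2, 14.3 and 98.2 CPM in MTX livers, and at 64.3, 35, 96.1, 48 and 31.3 CPM in controls. All MTX+nitrate livers were below all controls, and the MTX livers split, with replicates 1 and 5 in or above the control range and the other 3 below it. Those 2 libraries also had the highest neutrophil and monocyte marker sums, 31.9 and 23.6 CPM, and their part in the level was not tested. The difference from control was -1.92 ± 0.56 for MTX+nitrate (adjusted p = 0.079) and -0.40 ± 0.53 for MTX (adjusted p = 0.706). MTX+nitrate against MTX gave -1.52 ± 0.56 (adjusted p = 0.122). With MTX replicates 1 and 5 left out, Slc25a30 became the single member called for MTX against control, as lower in MTX livers. Those 2 libraries hold the highest Slc25a30 values of the MTX group, and the omission was added after seeing the data. This call therefore follows from the choice of libraries and is no evidence of a fall with MTX.

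For MTX against control, which asks what the drug changed, 0 of 41 members were called by edgeR, against 3.66% of all genes (2.06% higher and 1.6% lower). At an unadjusted p under 0.05 stood 10 of 41 members, against 21.9% of all genes. DESeq2 called 5 (Slc25a1, Slc25a3, Slc25a5 and Slc25a39 higher and Slc25a27 lower in MTX livers), against 7.92% of all genes by that tool, and limma-voom called 0. The libraries did not overlap for 2 members, Slc25a3 and Slc25a27, against 5.42% of all genes. The largest fold change upwards was 0.77 for Slc25a25, and 37 of 41 members were within 0.5 on the log2 scale.

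The phosphate carrier Slc25a3, which supplies phosphate for ATP synthesis, stood at 258, 279.7, 276, 264 and 279 CPM in MTX+nitrate livers, at 305, 303, 349, 311 and 301 CPM in MTX livers, and at 272, 262, 282, 271 and 278 CPM in controls. Every MTX liver was above every liver of the other groups, and the MTX+nitrate and control livers overlapped. The difference was 0.20 ± 0.07 for MTX against control (adjusted p = 0.0958) and -0.21 ± 0.07 for MTX+nitrate against MTX (adjusted p = 0.0819), so neither passed. Slc25a3 was also the least variable member in controls, with a coefficient of variation of 2.7%. Slc25a5 averaged 298 ± 14 CPM in MTX+nitrate livers, 336 ± 16.7 CPM in MTX livers and 294 ± 15.7 CPM in controls, with adjusted p = 0.121 for MTX against control. Slc25a1 averaged 238 ± 17.5, 259.6 ± 27.2 and 209 ± 24.2 CPM in the same order of groups, with 0.31 ± 0.10 for MTX against control (adjusted p = 0.0778). Slc25a39 had 0.26 ± 0.08 for MTX against control (adjusted p = 0.0859). With length and GC trends removed, Slc25a3 was the single member called for MTX against control, at 0.29 higher in MTX livers.

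The carriers that serve the urea cycle, fat oxidation and folate metabolism named next were not called by edgeR or DESeq2 in any of the 3 comparisons. Slc25a32, which carries folate into the matrix, is of interest with an antifolate. It stood at 25.7, 24.4, 24.4, 23.3 and 35.2 CPM in MTX+nitrate livers, at 20.9, 24.9, 26.7, 27.2 and 31.3 CPM in MTX livers, and at 34.6, 25.1, 24.2, 32.9 and 26.6 CPM in controls. The groups overlapped, and the fold change was 0.02 ± 0.14 for MTX+nitrate against MTX, -0.11 ± 0.14 for MTX+nitrate against control and -0.13 ± 0.14 for MTX against control (adjusted p = 0.946, 0.741 and 0.613). Slc25a15 averaged 437 ± 52.9 CPM in MTX+nitrate livers, 451 ± 52.8 CPM in MTX livers and 455 ± 58.9 CPM in controls. Slc25a13 averaged 217 ± 7.19 CPM in MTX+nitrate livers, 256 ± 34.2 CPM in MTX livers and 263 ± 29.9 CPM in controls; all MTX+nitrate livers were below all controls, at an adjusted p of 0.142. Slc25a20, the carnitine/acylcarnitine carrier, averaged 65.2 ± 9.85, 76.2 ± 13.4 and 71.9 ± 12 CPM in the same order, with adjusted p = 0.649 for MTX+nitrate against control. Of Slc25a46, an outer membrane member linked to mitochondrial shape, and Slc25a16, linked to coenzyme A, the adjusted p for MTX+nitrate against control was 0.0784 and 0.152. DESeq2, unlike edgeR, called Slc25a46 as lower in that comparison.

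Read by the solutes carried, the members called by edgeR lay in 3 of 5 classes. Of all genes, edgeR called 4.31% for MTX+nitrate against MTX, 2.41% for MTX+nitrate against control and 3.66% for MTX against control. At an unadjusted p under 0.05 stood 22.4%, 17.6% and 21.9% of all genes in the same order. Among nucleotide and phosphate carriers, 8 of 11 were tested and Slc25a25 was called in 1 comparison. DESeq2 also called Slc25a25 and Slc25a3 for MTX+nitrate against MTX, and Slc25a3 and Slc25a5 for MTX against control. Among carriers of cofactors, folate, iron and glutathione, all 11 were tested and Slc25a51 was called against both MTX and control, to which DESeq2 added Slc25a42 for MTX+nitrate against control and Slc25a39 for MTX against control. Among carriers of di- and tricarboxylates and the uncoupling-protein branch, all 9 were tested, with Slc25a34 called against both and Slc25a27 against MTX. Here DESeq2 added Slc25a30 for MTX+nitrate against control, and Slc25a1 and Slc25a27 for MTX against control. Among carriers of amino acids and carnitine, 9 of 11 were tested and 0 were called by edgeR or DESeq2 in any comparison, with 1, 3 and 1 at an unadjusted p under 0.05 for MTX+nitrate against MTX, MTX+nitrate against control and MTX against control. The last class holds orphans and others, with 4 of 5 tested. It had 0 calls by edgeR, with 0, 2 and 0 members at an unadjusted p under 0.05 in the same order, and DESeq2 called Slc25a46 as lower in MTX+nitrate livers than in controls.

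**Figure D5:**
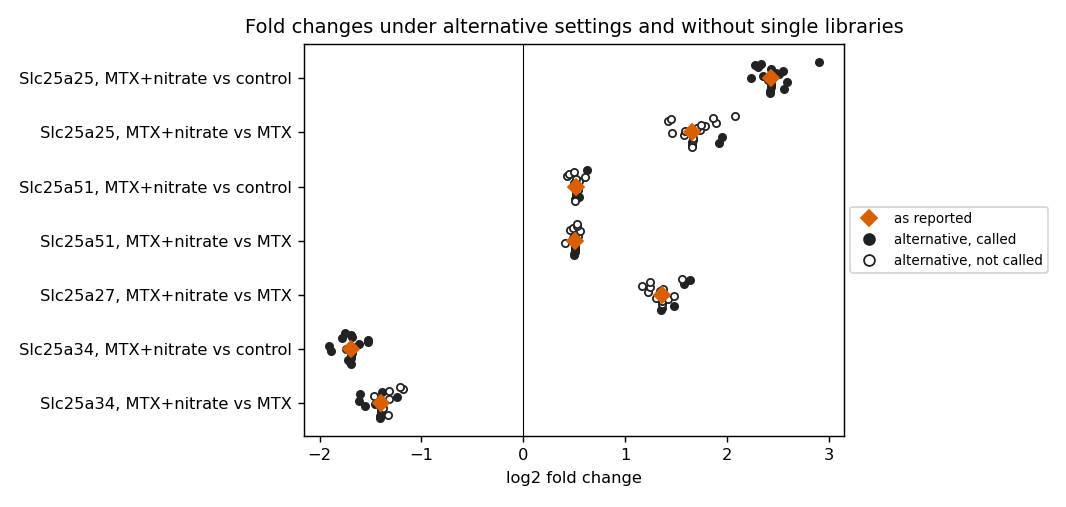
Log2 fold changes of the called or non-overlapping members named on the axis, as reported (diamonds), under other settings and without single libraries (circles, filled where called at an adjusted p under 0.05). For MTX+nitrate against control, every circle of Slc25a25 and Slc25a34 is filled, with log2 fold changes of 2.24 to 2.91 and -1.91 to -1.53.

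Genes that work with the carriers were read against the same shares of all genes. By edgeR these were 4.31% for MTX+nitrate against MTX, 2.41% for MTX+nitrate against control and 3.66% for MTX against control. At an unadjusted p under 0.05 they were 22.4%, 17.6% and 21.9% in the same order. Of 15 tested genes of the TOM and TIM22 machinery that imports carriers into mitochondria, Tomm20 fell with MTX+nitrate against MTX (46.5 ± 2.63 against 56.2 ± 4.79 CPM, log2 -0.27, adjusted p = 0.0462). Tomm20 averaged 50.4 ± 2.2 CPM in controls, so the MTX livers were the highest group. MTX+nitrate against control and MTX against control had 0 calls in this list by edgeR, DESeq2 or limma-voom, with 0 and 4 genes at an unadjusted p under 0.05. Of 19 tested transporters outside the family, 3 were called for MTX+nitrate against MTX and 2 for MTX against control. Mpc2, a subunit of the pyruvate carrier, fell with MTX+nitrate against MTX (-0.41, adjusted p = 0.024). So did the outer membrane channel Vdac3 (-0.32, adjusted p = 0.0312) and the outer membrane protein Tspo (-0.33, adjusted p = 0.039). Mpc2 averaged 104.4 ± 9.72 CPM in MTX+nitrate livers, 138.9 ± 7.6 CPM in MTX livers and 115.2 ± 12.2 CPM in controls. For Vdac3 the means were 55 ± 4.04, 68.8 ± 5.37 and 58 ± 3.68 CPM in the same order. Both were highest in MTX livers. DESeq2 called both for MTX against control, while edgeR did not (adjusted p = 0.0886 and 0.0784). Tspo averaged 33.6 ± 2.94 CPM in MTX+nitrate livers, 42.3 ± 2.94 CPM in MTX livers and 30.3 ± 2.67 CPM in controls, and rose with MTX against control (0.48, adjusted p = 0.00994), as did Smdt1 of the calcium uniporter (0.40, adjusted p = 0.0444), which limma-voom did not call. MTX+nitrate against control had 0 calls in this list by the 3 tools, with 1 gene at an unadjusted p under 0.05. The family's relatives under other symbols, Ucp2, Mtch1 and Mtch2, had 0 calls by any of the 3 tools, with Mtch2 at an unadjusted p under 0.05 for MTX+nitrate against MTX.

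Among enzymes that use the carried solutes, Gpd2, the mitochondrial glycerol-3-phosphate dehydrogenase of a redox shuttle, fell with MTX against control (37.5 ± 4.06 against 60.7 ± 6.95 CPM, log2 -0.70, adjusted p = 0.0131). Cpt1a, which makes the acylcarnitines that Slc25a20 carries, fell with MTX+nitrate against control (287 ± 60.8 against 491.5 ± 87.9 CPM, log2 -0.78, adjusted p = 0.043). It was the only edgeR call among 10 tested carnitine genes, beside 2.41% of all genes called in that comparison. In MTX livers Cpt1a averaged 335 ± 98.1 CPM, with -0.55 against control (adjusted p = 0.104), a difference that DESeq2 called. MTX+nitrate against MTX gave -0.22 (adjusted p = 0.524). Alas1, the first enzyme of haem synthesis, averaged 211 ± 91.4 CPM in MTX+nitrate livers, 154 ± 111.5 CPM in MTX livers and 43.2 ± 24.6 CPM in controls. It rose against control in both treated groups (2.28 with MTX+nitrate, adjusted p = 0.0232, and 1.83 with MTX, adjusted p = 0.0391), though limma-voom did not call it with MTX. Of 12 tested genes of mitochondrial folate metabolism, 0 were called by edgeR, DESeq2 or limma-voom in any comparison. At an unadjusted p under 0.05 stood 1, 2 and 1 for MTX+nitrate against MTX, MTX+nitrate against control and MTX against control. Over all genes the shares at that level were 22.4%, 17.6% and 21.9%. Of 7 urea cycle genes, 0 were called by these tools, with 0, 2 and 1 at that level in the same order. The edgeR shares of all genes called were 4.31%, 2.41% and 3.66% in these comparisons. Of 10 regulators of mitochondrial biogenesis and fasting, Foxo1, a transcription factor of the fasting response, rose with MTX+nitrate against MTX (0.75, adjusted p = 0.0187). Foxo1 averaged 59.6 ± 14 CPM in MTX+nitrate livers, 35.4 ± 5 CPM in MTX livers and 42.9 ± 5.84 CPM in controls. MTX+nitrate against control and MTX against control had 0 calls in this list by edgeR, DESeq2 or limma-voom. In these comparisons 4 and 1 of its genes were at an unadjusted p under 0.05.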

How the data were processed

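Gene counts came from a single table that the authors deposited, with raw whole-number values, symbols, gene lengths and GRCm38 (mm10) coordinates, the build per the submitters' processing notes. Per the labels' protocols, 1.3 µg of column-purified total RNA entered a SMARTer library kit. Aligner, counter, strand setting, annotation release and the definition of gene length were not stated in any source used here. The labels do not say that each library is a separate mouse, so p-values reflect library-to-library spread, which may be technical. All 15 columns matched a label. In the 30 within-group pairs the variance between libraries was 21.1 to 57.4 times that of sampling, so none was the same library counted again. Separate libraries of the same liver can also differ by more than sampling, so this does not show separate mice.

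From the deposited counts, filterByExpr (minimum count 10) and TMM scaling in edgeR 4.0.16 (R 4.3.3) left 14219 genes. A quasi-likelihood fit over 3 groups (12 residual degrees of freedom, common biological coefficient of variation 0.223) gave p-values adjusted by Benjamini-Hochberg over all of them, called under 0.05. All adjusted p-values come from this fit unless another tool or setting is named. Scripts were tested on simulated data. Levels per kilobase use the authors' gene length, with the GENCODE M21 transcript length as an alternative. Alternatives were DESeq2 1.42.0, limma-voom 3.58.1, other scaling and filters, a fit over 2 groups, a replicate block, length and GC offsets (mgcv 1.9.3) and single libraries left out; leaving out MTX replicates 1 and 5 together, and the transcript length, were added after seeing the data. Members, gene lists and tests were chosen with earlier results of these data known. Members called in any comparison are given in full; other members are named for high control levels, groups that do not overlap or their role in liver metabolism, and genes of other lists where called.

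Promoter sequences are from RefSeq (GRCm38.p6), with entries for 36 of 47 members. Counts at 16663967 to 19274497 per library make counting error small beside the spread between libraries, except for scarce members such as Slc25a27.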

Additional observations from a re-analysis of the deposited data

Results flagged for a closer look

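In 23 named members and 3 groups, 69 sets of 5 libraries were looked at for a library far from the others (Dixon's test at the 95% level), and 5 sets (7.25%) held one, where chance gives about 1 in 20. Slc25a25 stood at 196.7 CPM in control replicate 5, against 50.5 to 92.6 CPM in the other controls. Slc25a3 stood at 349.2 CPM in MTX replicate 3, against 301 to 311 CPM in the other MTX livers. Slc25a4, the heart and muscle ADP/ATP exchanger, stood at 7.98 CPM in MTX replicate 5, against 4.18 to 5.24 CPM in the others. Slc25a32 stood at 35.17 CPM in MTX+nitrate replicate 5, against 23.3 to 25.7 CPM. Slc25a11 stood at 83.54 CPM in MTX+nitrate replicate 3, against 74.5 to 77 CPM.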

How the results depend on the processing

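Slc25a genes called numbered 3 (MTX+nitrate against MTX), 3 (MTX+nitrate against control) and 0 (MTX against control). DESeq2 called 5, 6 and 5. For MTX+nitrate against MTX, the fit over 2 groups and length and GC offsets each called 1, and leaving out MTX replicates 1 and 5 called 0. For MTX against control, the offsets and that omission each called 1. Without single libraries the members called ranged from 0 to 2, 2 to 3 and 0 to 3, and all genes called from 166 to 600, 99 to 312 and 86 to 995. All genes called numbered 613, 342 and 521 as reported and 1208, 751 and 1126 by DESeq2. For MTX+nitrate against MTX they numbered 384 with no filter, 248 over 2 groups, 294 with offsets and 190 without MTX replicates 1 and 5; for MTX+nitrate against control, 220 with offsets. Offsets moved the split of higher to lower calls to 96 and 198 (337 and 276 as reported), 103 and 117 (201 and 141) and 252 and 111 (293 and 228).

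Library numbers did not pair the samples: deviations of same-numbered libraries correlated at -0.19 to 0.06, and no library correlated best with its own number. With the replicate block, 1 member was called for MTX+nitrate against MTX (Slc25a25), and all genes called numbered 129, 157 and 142.

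Slc25a51 in MTX against control (0.01) changed sign to -0.03 without MTX replicate 2, -0.0045 without MTX replicate 5, -0.0761, -0.05 and -0.0095 without control replicates 2, 3 and 4, and -0.0121 without MTX replicates 1 and 5; single libraries left out gave -0.0761 to 0.1204. The causes were not tested. Of the members called, Slc25a27 and Slc25a34 rest on the fewest reads.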

Other observations

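The family took 0.458% ± 0.0293 of all counts in MTX+nitrate livers, 0.412% ± 0.0173 in MTX livers and 0.422% ± 0.0208 in controls (SD, n = 5 each). Leaving out Slc25a25, these shares were 0.406%, 0.397% and 0.413%. The median coefficient of variation of the tested members was 18.2% in MTX+nitrate livers, 14.4% in MTX livers and 16.5% in controls. Slc25a30 had the highest in MTX livers, at 92.5%, and Slc25a25 the highest in controls, at 64.9%.

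Some members are neighbours on a chromosome. Slc25a29, a carrier of basic amino acids, and Slc25a47 lie on opposite strands of chromosome 12, with 162 bases between their annotated spans. The RefSeq starts lie further apart, at 108835876 for Slc25a29 and at 108851129 for Slc25a47. The latter is inside the annotated Slc25a47 span of 108836046 to 108856815. Levels per kilobase in MTX+nitrate livers, MTX livers and controls were 1.29, 1.02 and 0.759 for Slc25a29 and 172, 205 and 220.5 for Slc25a47.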
